A study of Pyronema omphalodes CBS 100304 with 6 samples.

Results

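The genes described here encode the nuclear and mitochondrial RNA polymerases, Mediator, the general transcription factors and the elongation factors of *Pyronema confluens*, a filamentous ascomycete. They were chosen by words in the predicted product of each gene model (DNA-directed RNA polymerase, transcription initiation factor, Mediator of RNA polymerase, RNA polymerase II, TATA-box, general transcription, transcription elongation, TFII), and not by any measured value. These words matched 96 of the 13369 genes in the table, and 0 matches had to be left out as RNA-dependent RNA polymerases. The 96 genes were sorted by product into 13 roles, with 5 genes for RNA polymerase I, 8 for RNA polymerase II, 10 for RNA polymerase III, 7 for subunits shared between polymerases and 1 for the mitochondrial polymerase. The others were 4 initiation factors of polymerase I, 1 of polymerase III, 15 genes for TFIID and the TATA-box-binding protein (TBP), 15 for TFIIA, TFIIB, TFIIE, TFIIF and TFIIH, 17 for Mediator, 6 for elongation and 6 for factors that act on RNA polymerase II. The last was the corepressor SSN6, which the words for general transcription caught although it represses transcription in yeast.

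RNA was sequenced from vegetative mycelium of strain CBS100304, which the sample labels file under *Pyronema omphalodes*. Cultures were shaken in liquid medium at 25°, kept in constant light for at least a day, moved to constant darkness and harvested under red light after 24 hr (DD24, the subjective evening) or 36 hr (DD36, the subjective morning). The moves to darkness were staggered so that all cultures had about the same age at harvest, and each time point had 3 libraries, a, b and c, made from independent cultures. The study asked which genes differ between the subjective morning and the subjective evening in a fungus that shows no visible rhythm of growth.

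In eukaryotes, RNA polymerase I makes the precursor of the large ribosomal RNAs, RNA polymerase II makes messenger RNAs and RNA polymerase III makes transfer RNAs and other small RNAs. Each nuclear polymerase has its own large catalytic subunits, and all of them share a set of small subunits. TFIID, with TBP at its core, TFIIA and TFIIB mark the promoter for RNA polymerase II, TFIIF, TFIIE and TFIIH bring in and activate the enzyme, and Mediator passes signals from activators to it. The roles of single proteins named below are known mainly from budding and fission yeast, and the names of the *P. confluens* genes rest on the sequence matches recorded in the table.

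The libraries held between 806459 and 1132608 counts, of which 30.7% to 52.2% fell on a single gene, *PCON_08583*, with the highest share in DD24 replicate a. The 96 transcription genes had between 1758 and 3249 counts in a library, or 0.200% to 0.311% of all counts. Levels are given as CPM, counts scaled to the depth of the genes tested with TMM factors, which correct for libraries in which a few genes take many reads. TMM factors lay between 0.728, in DD24 replicate a, and 1.13. The limit that a count of 0 allows, 3 counts, stood for 2.55 to 4.73 CPM, and covers counting error only. Of 21 marker genes of vegetative mycelium, 20 had counts in every library, with summed levels of 20349 to 22379 CPM in DD24 and 17919 to 23053 CPM in DD36. Of 56 genes matched by words for sexual tissue and spores, 40 had counts in every library. Their summed level was 3368, 2815 and 3073 CPM in DD24 and 2728, 2646 and 3179 CPM in DD36. Single genes of this list differed widely. *SPO11*, a meiotic marker, had 0 or 1 counts in a library. The mating-type matches *PCON_07491* and *PCON_08389* had 7 to 11 and 22 to 43 counts. The part of other cell types in the results was not tested, and in RNA from whole cultures fewer cells of a type cannot be told apart from less RNA per cell.

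Most of the transcription machinery was expressed at low to moderate levels. Of the 96 genes, 92 had counts in every library and 0 were at 0 in all libraries, but only 61 had enough counts for a test. The other 35 had a median of 5 counts, with a highest count of 20, and shorter mRNAs (median 945 bases against 1801 bases for the genes tested). Corrected for length, the median of the 96 genes was 10.9 CPM per kb of mRNA. The median of all 13369 genes in the table was 3.46 CPM per kb. Among genes with enough counts for a test the order was the other way round, with a median of 13.3 CPM per kb for the 61 transcription genes and 22.9 for all 5466, a level that 16 of the 96 reached. Genes for *RPB1*, *SSN6*, *SPT6*, the large TFIIA subunit and *RPB2* together took 26.6% of the counts of the 96 genes.

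**Figure D1:**
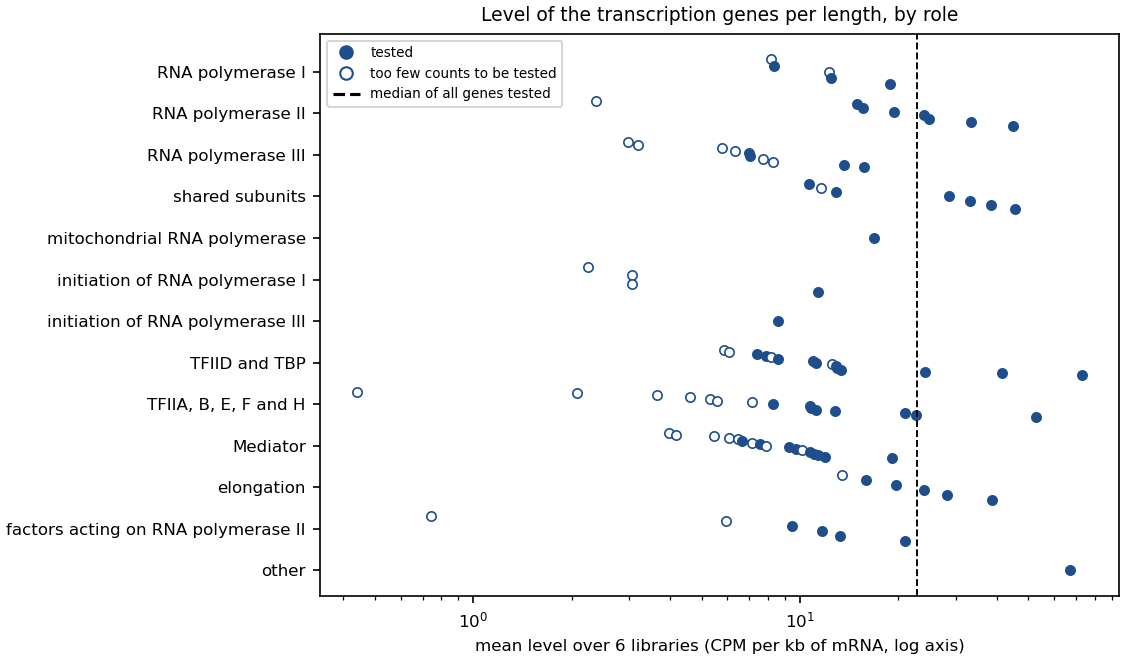
Mean level of each of the 96 transcription genes over the 6 libraries, in CPM per kb of mRNA on a log axis, by role. Filled points are the 61 genes tested, open points the 35 with too few counts, and the dashed line is the median of all genes tested (22.9 CPM per kb), which 16 genes reached.

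The highest level per length belonged to *PCON_06714*, the gene for TBP, which binds the TATA box and serves all nuclear polymerases, with 73.2 ± 15.5 CPM per kb (SD, n = 6). *PCON_13639*, the gene for SSN6, followed with 67.2 ± 6.40 CPM per kb. TBP was above SSN6 in 3 of 6 libraries, those of DD36, and below it in those of DD24. The order by mean thus did not hold in DD24. Next came the large TFIIA subunit, which helps TBP to hold the promoter, with 52.6 ± 4.48 CPM per kb. It lay below SSN6 in 6 of 6 libraries. RPABC4, a small zinc-binding subunit of all nuclear polymerases, had 45.4 ± 8.80 CPM per kb and the polymerase II assembly subunit RPB3 had 44.8 ± 5.10 CPM per kb. RPABC4 was above RPB3 in 4 of 6 libraries, those of DD36 and DD24 replicate c. The order of these neighbours was thus not the same in all libraries.

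Among the nuclear polymerases, RNA polymerase II had the highest transcript levels. Its largest subunit RPB1, whose carboxy-terminal repeats recruit processing factors, is encoded by *PCON_08504* on scaffold 387 (positions 34603 to 40642 of genome v01_2, minus strand), a model of 6 exons for 1740 residues. RPB1 had 33.3 ± 3.56 CPM per kb (SD, n = 6), the polymerase I counterpart RPA1 18.9 ± 2.52 and the polymerase III counterpart RPC1 13.7 ± 1.35 CPM per kb. Within each of the 6 libraries the order was RPB1 above RPA1 above RPC1. The ratio of RPB1 to RPA1 was 1.78 ± 0.257 (range 1.45 to 2.18) and that of RPA1 to RPC1 was 1.39 ± 0.176. The second-largest subunits, which close the active site, kept the same order, with 24.9 ± 1.52 CPM per kb for RPB2, 12.4 ± 3.16 for RPA135 and 7.01 ± 1.06 for RPC2. RPB2 was above RPA135 and RPA135 above RPC2 in 6 of 6 libraries. By their means the largest subunit of each enzyme lay above the second-largest, for polymerase II by a factor of 1.34 ± 0.0981 in 6 of 6 libraries. The RPC1 model overlaps a neighbour on the other strand by 172 bases. These 6 libraries include both time points, and the ratios are descriptions with no test.

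**Figure D2:**
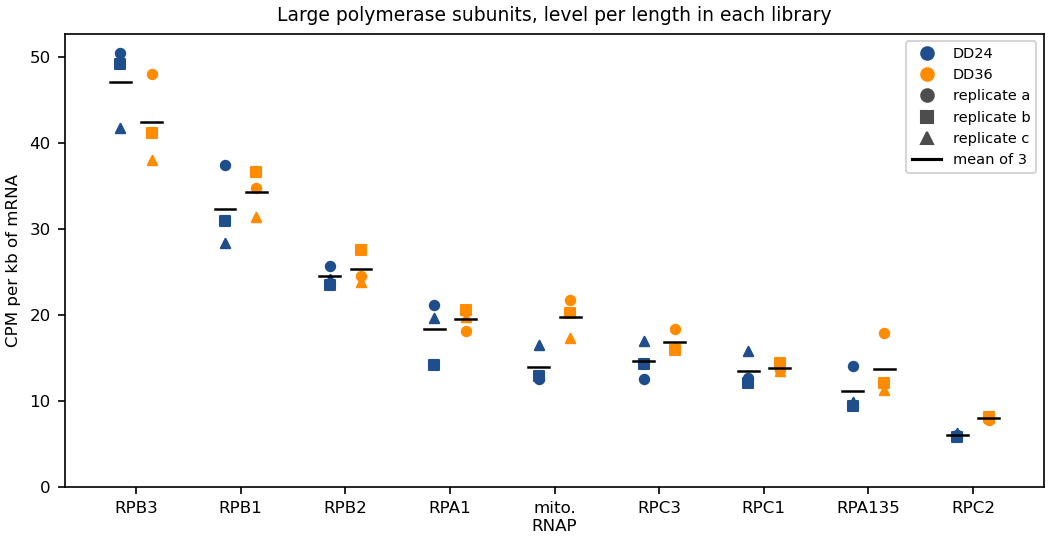
Level of the large polymerase subunits in each library, in CPM per kb of mRNA, with DD24 in blue and DD36 in orange, replicates a, b and c as circle, square and triangle, and the mean of 3 as a bar. RPB1 lay between 28.4 and 37.5 CPM per kb, above RPA1 and RPC1 in each library, and RPC2 was higher in the 3 DD36 libraries than in the 3 DD24 libraries.

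The remaining polymerase genes spread over a wide range. Polymerase II genes lay between 2.37 and 44.8 CPM per kb with a median of 21.7, and polymerase III genes between 2.98 and 15.7 with a median of 7.01 CPM per kb. The lowest polymerase II model, *PCON_11725*, is a shorter RPB1-like model of 989 residues with 46 counts in all, against 1094 for the main RPB1 gene. RPC3, part of the polymerase III subcomplex that opens promoters, was the highest of its enzyme with 15.7 ± 2.07 CPM per kb. Shared subunits had a median of 28.6 CPM per kb, with a range of 10.6 to 45.4. The polymerase of the mitochondria, *PCON_06943*, stood at 16.9 ± 3.74 CPM per kb.

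Initiation factors differed in level within their complexes. TFIIF alpha was above TFIIF beta by a factor of 1.78 ± 0.201 and the large TFIIA subunit above the small by 2.99 ± 1.26, each in 6 of 6 libraries. TFIID subunit 14, a chromatin-reading protein that yeast TFIID shares with other complexes, had 41.5 ± 5.19 CPM per kb, whereas 15 genes of this role went down to 5.87. The 5 subunits of TFIIH that the product words caught, a factor which opens the promoter DNA and phosphorylates polymerase II, had between 2 and 24 counts in a library and 3.65 to 10.7 CPM per kb, and 1 of them could be tested. KIN28 (*PCON_05662*), the kinase of TFIIH, fell outside the words and had 13.3 CPM per kb. RRN6, RRN7 and RRN11, which in yeast form the core factor at ribosomal RNA promoters, lay between 2.25 and 3.07 CPM per kb. RRN3, which couples polymerase I to that factor, had 11.3 CPM per kb.

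Mediator genes lay between 3.97 and 19.1 CPM per kb, with a median of 7.87. The 5 head subunits lay between 3.97 and 11.9, the 6 middle subunits between 4.17 and 19.1, the 2 tail subunits between 6.66 and 11.0, and the 3 genes of the kinase module that the product words caught between 7.12 and 10.7 CPM per kb. The kinase itself, SSN3 (*PCON_12012*), fell outside the words and had 11.8 CPM per kb. MED14, the scaffold that joins the modules, had 9.27 CPM per kb. The highest were MED19, a subunit at the hook that meets polymerase II, and MED6 of the head. Elongation factors were higher, at 13.4 to 38.8 CPM per kb. The small chromatin-associated factor ELF1 had 38.8 ± 16.1, the histone chaperone SPT6 had 28.1 ± 3.22 and SPT5, which keeps the polymerase on its template, had 24.1 ± 4.48 CPM per kb. SPT6 was above SPT5 in 5 of 6 libraries, and the spread of ELF1 covered both.

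Between DD24 and DD36, no transcription gene differed by the test across all genes, edgeR's quasi-likelihood test with Benjamini-Hochberg adjustment at 0.05. Of the 61 genes tested 0 were called, beside 0.0% higher and 0.0% lower among all 5466 genes, and the smallest adjusted p was 0.585. The paper used other tools, DESeq and LOX, and did list regulated genes between these time points, most of them lower in DD36. Its list of the most significantly regulated genes was not limited to an adjusted p under 0.05. In its RT-qPCR time courses, some of the morning-specific genes tested were verified as circadian and none of the evening-specific ones. When libraries of a letter were treated as pairs (a replicate block), 0 of 61 were again called, beside 0.0915% higher and 1.21% lower among all genes, and the smallest adjusted p was 0.197. Limma-voom also called 0 of the 61 (smallest adjusted p 0.666). DESeq2 gave none of the 61 genes an adjusted p after its own filter on low means, and with that filter switched off, after seeing the data, it called 0 of them. At an unadjusted p under 0.05, 4 of the 61 were higher in DD36 and 0 lower, beside 2.38% higher and 4.61% lower among all genes tested. With the block these were 5 higher and 0 lower, beside 4.13% and 7.45%. In simulated counts the test recovered 15% of genes changed 1.5-fold, 61% of those changed 2-fold and 91% of those changed 3-fold. Most changes of 1.5-fold would thus have been missed at this depth of counts. Genes changed 1.5-fold to 4-fold were planted together, and the strong changes ease the adjusted threshold for the weak ones. In the real data 0 genes passed in this fit, so these shares may be too high for it. The changed genes were drawn from all genes tested, whose median level was 41.7 CPM, against 27.2 CPM in the 61. Recovery among the 61 alone was not measured.

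Fold changes of the 61 genes lay between -0.65 and 1.02 on the log2 scale, with a median of 0.10 beside -0.00 for all genes. Values above 0, that is higher in DD36, were found for 41 of the 61 genes, or 67.2%, beside 49.7% of all genes tested. The medians of the pairs a, b and c were 0.20, 0.18 and 0.09. Without DD24 replicate b only 36 of 63 genes, or 57.1%, lay above 0, with a median of 0.06, whereas without DD24 replicate a, the library with the lowest TMM factor, 45 of 65 did, or 69.2%, with a median of 0.12. The median was 0.057 without DD36 replicate a and 0.17 without DD24 replicate c. In the fit with the block but without pair b, 33 of 60 genes, or 55.0%, lay above 0, with a median of 0.046. Summed over the 96 genes, the level was 2769, 2463 and 2640 CPM in DD24 and 2932, 2762 and 2809 CPM in DD36. The sums of the time points overlapped, with 2624 ± 154 against 2835 ± 87.9 CPM (SD, n = 3), and DD36 was higher in 3 of 3 pairs. Levels of the 2 time points did not overlap for 9 of the 61 genes, all of them higher in DD36, beside 6.02% higher and 5.87% lower among all genes tested. Without DD24 replicate a these were 17 higher and 3 lower of the same 61, beside 11.3% and 11.1%. Among the 35 genes not tested, 2 were higher and 3 lower without overlap. The share among all genes not tested was not computed, so no result is read from this. The filter on low counts chose the 61 genes, and the counts given for the 61 describe them and no others.

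**Figure D3:**
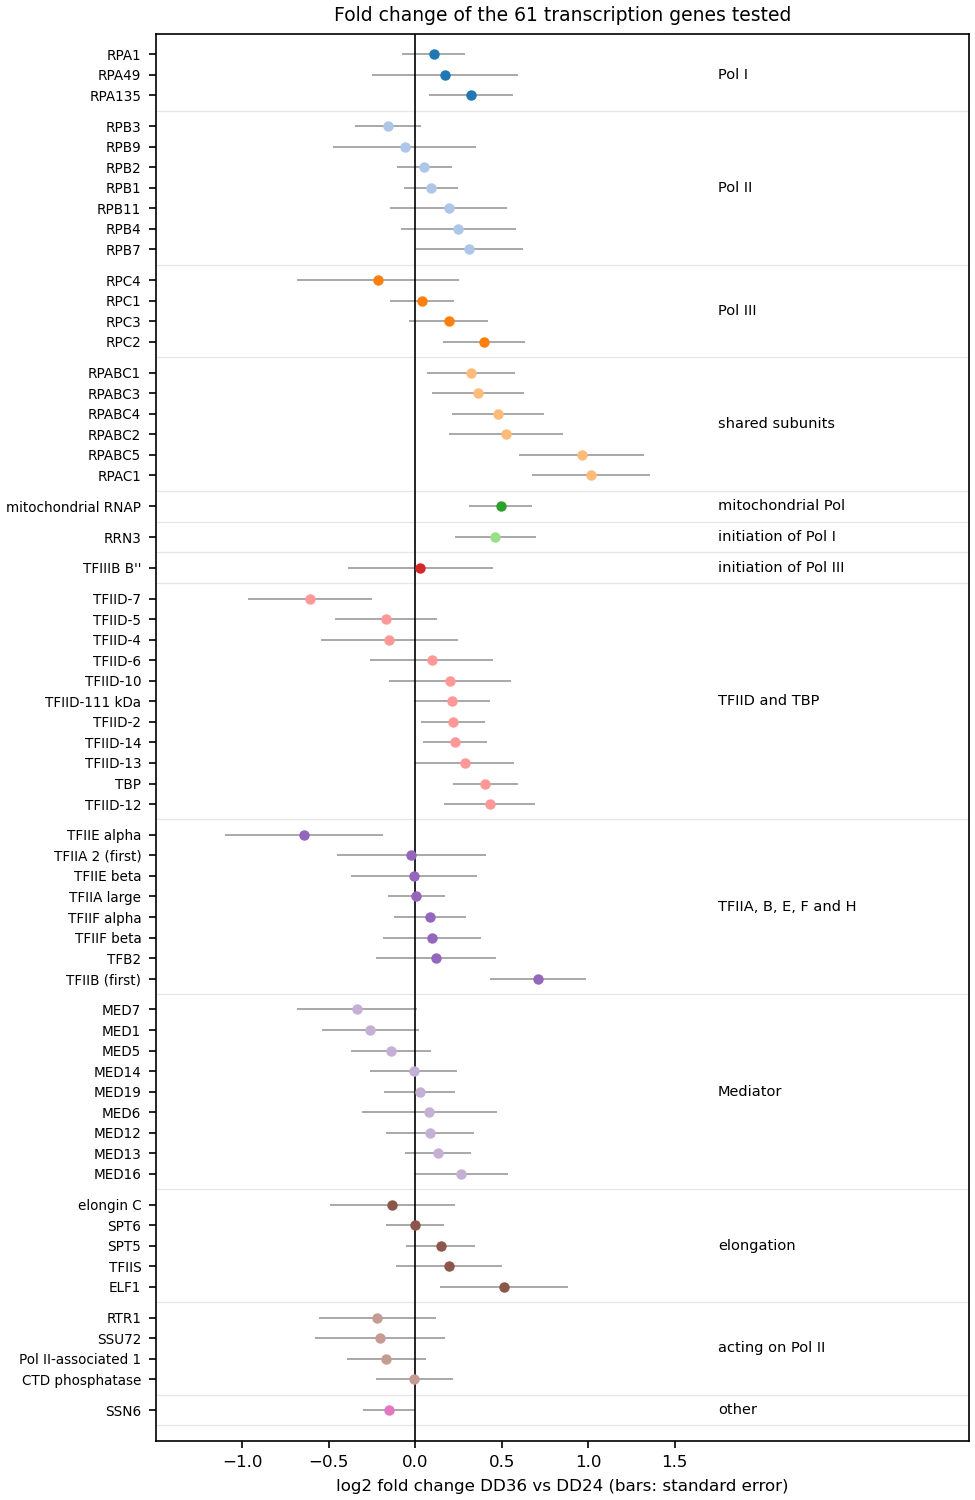
Log2 fold change of DD36 against DD24 for the 61 transcription genes tested, by role, with the standard error derived from the test's F statistic as bars. Values to the right of 0 are higher in DD36. The 6 shared subunits tested all lay above 0, and RPAC2, with too few counts to be tested, is not shown. Of the 61 genes, 0 passed the adjusted threshold.

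Among roles with more than 1 gene tested, the subunits shared between polymerases had the highest median fold change. All 6 that could be tested lay above 0, between 0.32 and 1.02 on the log2 scale with a median of 0.50, 2 of them at an unadjusted p under 0.05 and 0 after adjustment. Their summed level, with the untested RPAC2 included, was 110, 113 and 116 CPM in DD24 and 183, 147 and 155 CPM in DD36, which do not overlap. The 2 at an unadjusted p under 0.05, RPAC1 and RPABC5, had as few as 5 and 4 counts in a DD24 library. Their DD36 counts carried them past the filter, and both drop out when at least 10 counts in each library are required. RPAC2, which the filter left out, was lower in DD36. That all 6 lay above 0 thus depends in part on which genes the filter kept. Tested genes of the other roles, 55 in all, had a median of 0.08, with 35 above 0.

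RPAC1, which with RPAC2 forms the assembly platform of polymerases I and III, is encoded by *PCON_13271* on scaffold 842 (positions 63204 to 64864, minus strand), a model of 5 exons for 369 residues. Its levels were 7.88, 12.2 and 9.70 CPM in DD24 and 15.1, 23.8 and 23.0 CPM in DD36. All DD36 libraries were above all DD24 libraries. The log2 fold change was 1.02 (SE 0.34, unadjusted p = 0.0102), with an adjusted p of 0.585 by edgeR's test, and 0.90 without DD24 replicate a. Its partner RPAC2 had 3, 7 and 4 counts in DD24 and 2, 5 and 5 in DD36, too few for a test. Its CPM were lower in every DD36 library than in every DD24 library, opposite to RPAC1.

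RPABC5 (*PCON_07110*), a zinc-binding subunit of 73 residues in all nuclear polymerases, lies on scaffold 300 at positions 198146 to 199448 on the minus strand. It had 6.30, 9.62 and 12.1 CPM in DD24 and 24.3, 15.3 and 17.4 CPM in DD36, without overlap. Its log2 fold change was 0.96 (SE 0.36, unadjusted p = 0.0192, adjusted p = 0.650 by edgeR's test), and 0.79 without DD24 replicate a. Over 231 bases, or 17.7% of its length, the model overlaps *PCON_07111*, which matches a U3 snoRNA-associated protein and lies on the plus strand. *PCON_07111* had 9.81 ± 2.15 CPM in DD24 and 15.4 ± 2.20 CPM in DD36 (SD, n = 3), a log2 fold change of 0.66 (SE 0.36). Whether the counting used strand is not given in the sources used here, so that reads of these neighbours cannot be told apart.

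The other shared subunits had smaller values. RPABC4 had 17.3, 16.6 and 20.6 CPM in DD24 and 26.6, 24.7 and 24.8 CPM in DD36, with no overlap, and a log2 fold change of 0.48 (SE 0.26, adjusted p = 0.750 by edgeR). RPABC3 had 18.9, 21.0 and 20.6 CPM in DD24 and 25.5, 30.6 and 22.0 CPM in DD36, again with no overlap. For RPABC2 and RPABC1, named after their values were seen, the time points overlapped and the log2 fold changes were 0.52 and 0.32. All of these proteins belong to polymerases I, II and III alike.

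Subunits of polymerase II and Mediator had values nearer 0. The 16 genes tested for these 2 complexes lay between -0.34 and 0.31 on the log2 scale, with 10 above 0 and a smallest unadjusted p of 0.326. RPB7, which with RPB4 forms the stalk of polymerase II, had 20.5, 16.6 and 19.4 CPM in DD24 and 18.5, 31.5 and 18.4 CPM in DD36. Its log2 fold change of 0.31 (SE 0.31) came from DD36 replicate b, and was -0.012 without that library. MED16 of the Mediator tail had 25.2, 25.3 and 40.0 CPM in DD24 and 34.7, 45.1 and 28.5 CPM in DD36, with a log2 fold change of 0.27 (SE 0.27). It was 0.061 without DD36 replicate b, 0.52 without DD24 replicate c and -0.078 without pair b in the fit with the block. The groups overlapped for both genes. Mediator summed to 323 ± 13.3 CPM in DD24 and 338 ± 33.6 CPM in DD36 (SD, n = 3), and polymerase II to 415 ± 41.5 and 435 ± 34.4 CPM.

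For polymerase I, all 3 genes tested lay above 0, with a median of 0.17. RPA135 had 53.6, 35.8 and 37.6 CPM in DD24 and 68.3, 45.9 and 43.2 CPM in DD36, higher in each pair but overlapping, with a log2 fold change of 0.32 (SE 0.24). This value was 0.086 without DD36 replicate a, 0.20 without DD24 replicate b and 0.50 without DD24 replicate a. RRN3 (*PCON_11968*), the polymerase I initiation factor, had 29.9, 23.6 and 33.9 CPM in DD24 and 40.5, 37.4 and 41.3 CPM in DD36. These do not overlap, and the log2 fold change was 0.46 (SE 0.23, unadjusted p = 0.0665, adjusted p = 0.738 by edgeR), and 0.30 without DD24 replicate b. RRN7 of the core factor went the other way, with 3, 7 and 8 counts in DD24 and 2, 4 and 3 in DD36, too few for a test.

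For polymerase III, RPC2 (*PCON_12379*) stood out by the small spread of its levels, 23.6, 22.7 and 24.2 CPM in DD24 and 30.1, 31.5 and 31.2 CPM in DD36. The means were 23.5 ± 0.763 and 30.9 ± 0.716 CPM (SD, n = 3) without overlap, but with 15 to 37 counts per library the test gave a log2 fold change of 0.40 (SE 0.24) and an adjusted p of 0.780 by edgeR. RPC6, of the same enzyme, had 1, 3 and 2 counts in DD24 and 5, 6 and 4 in DD36 and was not tested. The B'' component of TFIIIB, which completes the polymerase III initiation factor, had 22.1, 15.7 and 13.3 CPM in DD24 and 29.0, 8.50 and 15.6 CPM in DD36. Its log2 fold change of 0.03 (SE 0.42) changed sign between fits.

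The mitochondrial RNA polymerase, *PCON_06943* on scaffold 294 (positions 236541 to 241265, plus strand; 3 exons, 1387 residues), transcribes the mitochondrial genome. It had 58.3, 59.4 and 76.4 CPM in DD24 and 101, 93.5 and 79.9 CPM in DD36. Every DD36 library was above every DD24 library, by little in pair c. The means were 64.7 ± 10.1 and 91.4 ± 10.6 CPM (SD, n = 3), and the log2 fold change was 0.49 (SE 0.18, unadjusted p = 0.0174, adjusted p = 0.624 by edgeR). It was 0.43 without DD24 replicate a (unadjusted p = 0.0495 by edgeR). In edgeR's fit with the block it was 0.37, 0.40 and 0.71 without pairs a, b and c (unadjusted p = 0.0614, 0.134 and 0.00202).

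**Figure D4:**
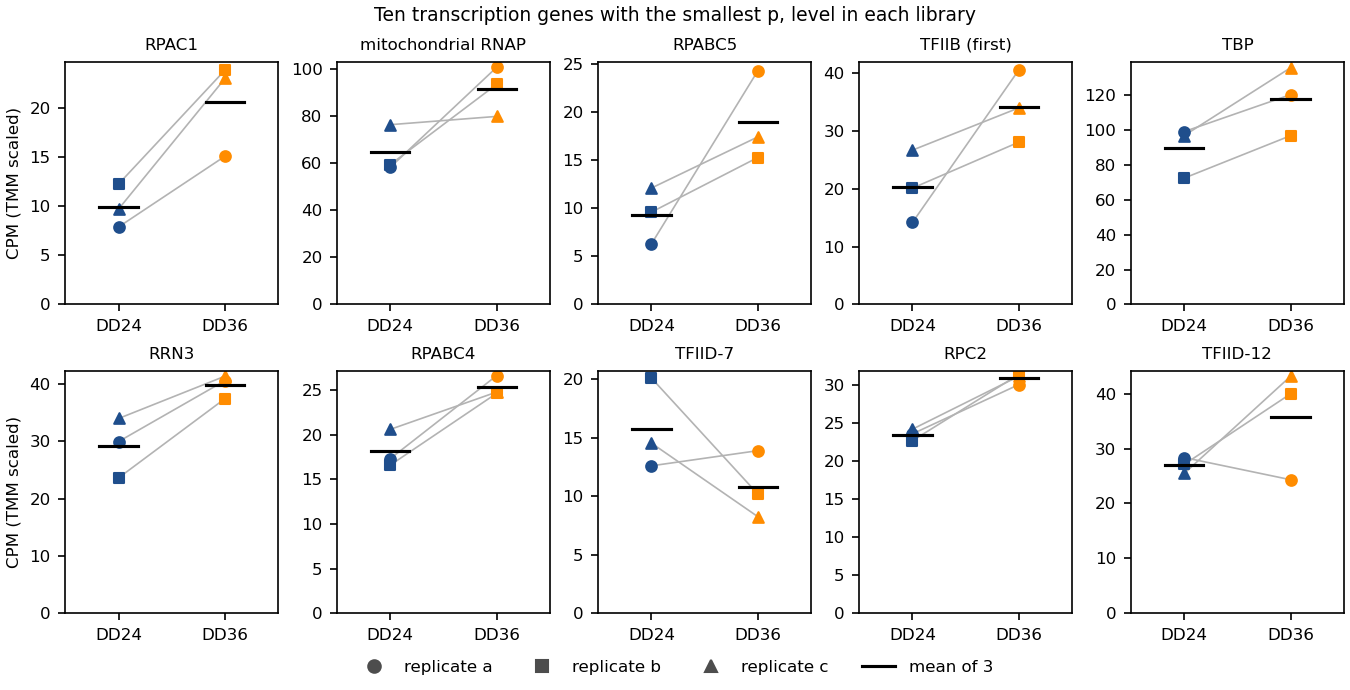
Level in each library, in CPM, of the 10 transcription genes with the smallest unadjusted p, with lines joining libraries of the same replicate letter and bars for the mean of 3. The time points do not overlap for RPAC1, the mitochondrial polymerase, RPABC5, TFIIB, RRN3, RPABC4 and RPC2, and TFIID subunit 7 is the only panel with a lower mean in DD36.

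TFIIB and TBP were the initiation factors with the smallest p in their roles. TFIIB, which positions polymerase II at the start site, has 3 gene models in the table, of which *PCON_05720* (scaffold 219, positions 101270 to 103760, plus strand; 2 exons, 364 residues) held 76.8% of their counts. It had 14.2, 20.1 and 26.7 CPM in DD24 and 40.5, 28.1 and 34.0 CPM in DD36, without overlap. The log2 fold change was 0.71 (SE 0.28, unadjusted p = 0.0233, adjusted p = 0.669 by edgeR). It was 0.55 (unadjusted p = 0.0795 by edgeR) without DD24 replicate a, which had the lowest value. In edgeR's fit with the block it was 0.41, 0.82 and 0.89 without pairs a, b and c (unadjusted p = 0.189, 0.0330 and 0.00951). *PCON_09270*, a TFIIB-like model with 44 counts in all, and *PCON_01116*, with 4, were not tested. How reads that match several models were counted is not given in the sources used here, so the split among such copies is uncertain. The same holds for the neighbouring TFIIA subunit 2 models *PCON_02568* and *PCON_02569*, which lie 82 bases apart on scaffold 1253 and had 125 and 12 counts.

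TBP had 99.2, 72.6 and 97.0 CPM in DD24 and 120, 96.9 and 136 CPM in DD36. The time points overlapped, since DD36 replicate b lay below DD24 replicates a and c, but DD36 was higher in 3 of 3 pairs. The log2 fold change was 0.41 (SE 0.19, unadjusted p = 0.0506), and with the replicate letter as a block the unadjusted p was 0.0172 and the adjusted p 0.297 by edgeR. Without DD24 replicate b the log2 fold change was 0.26 (unadjusted p = 0.213). Of the 11 genes tested for TFIID and TBP, 8 lay above 0, with a median of 0.21. TFIID subunit 12, a histone-fold protein, had 28.4, 27.1 and 25.5 CPM in DD24 and 24.3, 40.0 and 43.2 CPM in DD36, with pair a opposite to the others (log2 fold change 0.43, SE 0.26, and 0.28 without DD36 replicate c). TFIID subunit 2, named after its values were seen, did not overlap, with 47.3, 49.0 and 46.1 CPM in DD24 and 54.4, 53.6 and 57.8 CPM in DD36.

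Values below 0 were found for 20 of the 61 genes, and 0 of these passed an unadjusted p of 0.05. TFIID subunit 7 had 12.6, 20.1 and 14.5 CPM in DD24 and 13.9, 10.2 and 8.26 CPM in DD36, a log2 fold change of -0.61 (SE 0.36, adjusted p = 0.779 by edgeR) with overlap, and -0.36 without DD24 replicate b. TFIIE alpha, which recruits TFIIH, had the lowest value of the 61 genes, -0.65 (SE 0.46), and was chosen after its value was seen. Its levels were 26.8, 14.0 and 13.3 CPM in DD24 and 3.47, 16.2 and 11.9 CPM in DD36, so that DD24 replicate a was the highest and DD36 replicate a the lowest. The 4 tested factors that act on RNA polymerase II, 3 phosphatases of its carboxy-terminal domain among them, all lay below 0, between -0.22 and -0.0046 with a median of -0.19. The value nearest 0, that of the CTD phosphatase *PCON_01863*, turned to 0.0054 with the replicate block. The remaining factor, the RNA polymerase II-associated protein 1 homolog, had a log2 fold change of -0.17 (SE 0.23), which lay between -0.27 and -0.098 when single libraries were left out. SSN6 had 210, 183 and 208 CPM in DD24 and 178, 164 and 197 CPM in DD36, lower in 3 of 3 pairs but overlapping, with a log2 fold change of -0.15 (SE 0.15), and -0.088 without DD36 replicate b. Among all genes tested, 16.1% were lower in 3 of 3 pairs, as were 5 of the 61 transcription genes, and 15.9% were higher in 3 of 3 pairs, as were 17 of the 61.

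Elongation factors lay on both sides of 0, with 3 above and 2 below. ELF1 had 26.8, 19.2 and 9.70 CPM in DD24 and 17.4, 23.0 and 36.7 CPM in DD36. Its log2 fold change of 0.51 (SE 0.37) was 0.17 without DD36 replicate c and 0.23 without DD24 replicate c, and turned to -0.11 when pair c was left out of the fit with the block.

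Genes that work beside this machinery but fell outside the product words were read from the same fit. These were 34 genes for Elongator, capping and end formation of mRNA, the Paf1 complex, the histone acetyltransferase complex SAGA, kinases of the carboxy-terminal domain, the histone chaperone FACT and TFIIIC, and 27 of them could be tested. Of these, 14 lay above 0 and 13 below, with a median of 0.00, and 0 were called in the fits with and without the block. The scaffold protein of Elongator, a complex that modifies transfer RNAs, had 31.6 ± 3.68 CPM in DD24 and 46.7 ± 3.15 CPM in DD36 (SD, n = 3), a log2 fold change of 0.55 (SE 0.21, unadjusted p = 0.0222, adjusted p = 0.667 by edgeR). The TFIIIC subunit sfc3, which binds transfer RNA genes, had a log2 fold change of -0.46 (SE 0.23). For the FACT subunit pob3 it was -0.40 (SE 0.24), for the cap methyltransferase 0.46 (SE 0.29) and for the alpha subunit of the CTD kinase 0.30 (SE 0.19). The smallest p in the SAGA and Paf1 groups belonged to spt3 and *PCON_02229*, each with a log2 fold change of -0.23.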

How the data were processed

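RNA of 6 libraries was sequenced (Illumina). Per the study's methods and processing notes, which name CASAVA 1.8.2 and DESeq, reads were trimmed by the authors, mapped to genome v01_2 and deposited as raw counts per predicted gene. Not given in the sources used here are the aligner, the counter, its use of strand and how it treated reads matching several places. Why the deposited counts are far fewer than the mapped reads listed in the paper is not given either. The labels name the medium WPC and the methods minimal medium. The table also holds the authors' LOX and DESeq ratios, log2 ratios, base means, probabilities and p-values, which were not used. All 6 count columns were matched by name, and 0 columns of values per sample were left unmatched.

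Counts were fitted in R 4.3.3 with edgeR 4.0.16 (filterByExpr, 5466 of 13369 genes; TMM; robust quasi-likelihood fit; Benjamini-Hochberg adjustment over all genes tested, threshold 0.05). The common biological coefficient of variation was 0.173. Each SE given for an edgeR value is the absolute log2 fold change divided by the square root of the test's F statistic. CPM use as depth the summed counts of all genes tested times the TMM factor, and CPM per kb are divided by the mRNA length of the model. Deviations from the time point means correlated between libraries of the same letter at 0.223, 0.272 and 0.316 over all genes, above the minimum of 0.1 set for a pair, and at 0.0853, -0.0199 and -0.094 over the 61 transcription genes alone. How cultures of a letter were related is not given. Libraries of a time point differed by more than counting noise, so none was a copy. The test was checked on simulated counts, in which the fit with the block recovered 40%, 75% and 98% of genes changed 1.5-fold, 2-fold and 3-fold. Changed genes of all these sizes were planted together, which eases the adjusted threshold for the weak ones. They were drawn from all genes tested, not from the transcription genes alone.

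Named are the 10 genes with the smallest p, the 2 of highest level per length and the 1 of smallest p in each role, and the 1 of smallest p in each group of partner genes. Others are marked in the text, or are given by level or counts. The genes, roles, partner list and marker lists were chosen with earlier results of these data known. All 96 locus tags were found in the RefSeq gene table. Alternatives were RLE and total-count scaling, other filters, the block, DESeq2 1.42.0 and limma-voom (limma 3.58.1). Others were no robust estimation, an adjusted p under 0.1 and leaving out libraries or pairs. The depth in total-count scaling left out *PCON_08583* and the gene models matched to phage proteins. The block with total-count scaling or DESeq2, DESeq2 with no independent filtering, and the counts without overlapping models, were added after seeing the data.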

Additional observations from a re-analysis of the deposited data

How the results depend on the processing

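No transcription gene was called under any alternative that gave it an adjusted p. DESeq2 with its own filter left an adjusted p for 0 of the 61 genes, and for 8 with the block. With that filter off, an alternative chosen after seeing the data, all 61 had an adjusted p and 0 were called. Same-letter libraries were treated as pairs, and the fit with the replicate block changed no call of a transcription gene. Over all genes, where the main fit called 0 (130 higher and 252 lower at an unadjusted p under 0.05), it called 71 with the block (5 higher, 66 lower), 69 with the block and RLE scaling, 58 when total-count scaling was added to the block and 51 in DESeq2 with the block. Other fits called 53 with no filter on low counts, 27 with DESeq2 (5 with its filter off, 36 with the block and the filter off), 3 at an adjusted p under 0.1, and 0 with limma-voom. With the block, leaving out pair a gave 191 calls, pair b 2 and pair c 147, and leaving out single libraries gave 0 to 20, with 20 without DD24 replicate c. The median log2 fold change of the transcription genes was 0.10. It was 0.17 with total-count scaling, which moved the median of all genes to 0.07, 0.17 with that scaling and the block, 0.16 in genes with at least 10 counts in each library, 0.16 without pair c, 0.046 without pair b, and 0.057 to 0.17 when single libraries were left out. The TFIIIB component B'' changed sign, to -0.050 with the block, -0.055 with the block and RLE scaling, -0.078 with the block and DESeq2 under both filters, -0.14 with limma-voom, -0.33 without pair a and -0.17 without pair c, and lay between -0.49 and 0.39 without single libraries. RPB7 was -0.11 and MED16 -0.078 without pair b, and ELF1 -0.11 without pair c. RPB7 lay between -0.012 and 0.46 when single libraries were left out. The causes of these shifts were not tested. Of the 5 genes whose models overlap a neighbour, only RPABC5 and RPC1 were among the 61 tested. Without them, 39 of 59 genes lay above 0. Of the 59, 3 were higher at an unadjusted p under 0.05 and 8 were higher without overlap. Over all 5466 genes tested these shares were 49.7%, 2.38% and 6.02%, and they were not computed without overlapping models. Median levels per length rose to 18.6 CPM per kb with total-count scaling, whose depth leaves out *PCON_08583* and the phage-matched models. The order of the 96 genes kept a Spearman rho of 0.9998. Counts of 5 per library limit the 35 genes that were not tested.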

Other observations

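Within-library ratios of transcription genes, which do not depend on the scaling of the libraries, differed between the time points for a few pairs of genes. These pairs were chosen after their values were seen and were not tested. The ratio of RPB2 to RPC2, the second-largest subunits of polymerases II and III, was 4.04 ± 0.180 in DD24 and 3.18 ± 0.221 in DD36 (SD, n = 3, CPM per kb). RPC2 had only 15 to 37 counts per library, so that counting error alone was wider than these SDs. The ratio of the largest subunits RPB1 to RPC1 was 2.45 ± 0.597 in DD24 and 2.48 ± 0.129 in DD36. The ratio of RPB3 to RPAC1, its counterpart in polymerases I and III, was 7.06 ± 1.88 in DD24 and 3.15 ± 1.24 in DD36. The ratio of TBP to the corepressor SSN6 was 0.889 ± 0.0838 in DD24 and 1.30 ± 0.106 in DD36. TFIIF alpha to TFIIF beta stood at 1.78 in both, with SDs of 0.278 and 0.155. The 96 genes lie on 66 scaffolds, and the TFIIA subunit 2 models were the only ones next to each other. Of the gene models, 9 have no intron and 4 no annotated UTR. Coefficients of variation within a time point had a median of 17.9% in the 61 genes tested and 18.3% in all genes tested.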
